A study of Mus musculus with 21 samples.

Results

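The comparison described here sets the mutant transcription factor CEBPB(V285A) on DNA with 5-hydroxymethylcytosine (5hmC) against the same protein on DNA with 5-methylcytosine (5mC). Its members are 4 of the 21 protein binding microarrays of the study, taken by the protein and cytosine form in their labels, of which 2 carried 5hmC and 2 carried 5mC, read over all 65535 sequences of 8 bases (8-mers) in the deposited table. A protein binding microarray measures how strongly a tagged protein binds each of many double-stranded DNA probes at once, here by a Cy5 signal. The protein was a mouse bZIP DNA-binding domain with a glutathione S-transferase (GST) tag, expressed from a plasmid in a cell-free reaction. CEBPB(V285A), a designed point mutant of the wild-type domain, carries alanine in place of valine in the basic region. The 2 groups differed in the nucleotide used to synthesise the second DNA strand. The modified base therefore lay on the synthesised strand alone, every C of that strand was modified, and the printed strand kept plain cytosine in both groups. A further group of 2 CEBPB(V285A) arrays made with plain cytosine (C) is given beside the others as a reference. CREB1(A297V), with 2 arrays on 5mC and 4 on 5hmC, and wild-type CREB1, with 1 array on 5mC and 2 on 5hmC, were used to ask whether the difference was shared. Wild-type CEBPB was analysed here on 5hmC only.

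Factors of the bZIP family bind DNA as dimers, and each basic region reads one side (a half-site) of a short, often palindromic sequence. C/EBP proteins prefer the half-site gcaa, CREB1 prefers the half-site gtca of the cyclic AMP response element (CRE), and the PAR factors prefer gtaa. The valine that is exchanged here is characteristic of C/EBP proteins, and most other bZIP factors, CREB1 included, have alanine at that place. 5-Methylcytosine carries a methyl group in the major groove, at the same ring position as the methyl group of thymine. 5-Hydroxymethylcytosine is its oxidation product and carries a bulkier, polar hydroxymethyl group there. The half-sites differ in whether a cytosine or a thymine stands inside them, and the base before them is often the cytosine of a CpG.

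All 8-mers are written 5′ to 3′ as the synthesised strand, on the assumption that the printed strand was its template (otherwise every 8-mer, and every list, would have to be exchanged with its reverse complement), in lower case, with each C that is modified on the 5mC and 5hmC arrays in capitals. In the patterns of lists, all in capitals, N stands for any base. The set on which the results turn varies the base before the right half-site (C or T) and the base inside it (C or T). The left side tta, which completes PAR-like sites, gives ttaCgCaa, ttatgCaa, ttaCgtaa (the PAR palindrome) and ttatgtaa. The left side tga, as in the CRE, gives tgaCgCaa, tgatgCaa (the C/EBP-ATF composite site), tgaCgtaa and tgatgtaa. The C/EBP palindrome is ttgCgCaa and the CRE palindrome is tgaCgtCa. For 8 of these sites, the brightest probe over the 4 arrays among probes with only 1 of the 8 sites is shown, because its spot intensities are the raw measurement behind the Z-scores. The variable part of each probe is given as the synthesised strand with the site in capitals:
C/EBP palindrome: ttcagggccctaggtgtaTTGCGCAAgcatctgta
PAR left, C, C/EBP right: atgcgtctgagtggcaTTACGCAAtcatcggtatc
CRE left, C, C/EBP right: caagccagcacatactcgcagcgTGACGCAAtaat
C/EBP-ATF composite: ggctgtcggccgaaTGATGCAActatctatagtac
PAR left, T, C/EBP right: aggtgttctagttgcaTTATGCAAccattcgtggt
PAR left, T, PAR right: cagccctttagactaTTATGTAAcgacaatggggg
PAR palindrome: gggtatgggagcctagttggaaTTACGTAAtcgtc
CRE palindrome: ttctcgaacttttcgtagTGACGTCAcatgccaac

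The deposited value of an 8-mer is a Z-score made by the authors, which ranks 8-mers within an array. The arrays had not been brought to a common scale, so a difference in Z compares preference relative to the other 8-mers of an array, not affinity. The 5hmC arrays were dimmer, with median spot intensities of 295 and 292, against 981 and 922 on 5mC and 735 and 738 on C. The median local background was 113 and 145 on 5hmC and 487 and 385 on 5mC, so the ratio of signal to background overlapped between the groups. At least 65000 intensity units, near the scanner's ceiling, were read from 19 and 11 probes on the 5mC arrays and from 1 and 0 on the 5hmC arrays, which leaves the highest 5mC values as lower bounds. Replicate arrays correlated across 8-mers with r = 0.968 on 5mC and 0.838 on 5hmC, and the Z-score that 1 in 1000 8-mers exceed, called the top quantile here, was 48.7 and 51.3 on 5mC and 24.7 and 16.5 on 5hmC. The largest Z-score was 228 on 5hmC replicate 1 and 125 on 5hmC replicate 2. The 3 CEBPB(V285A) groups each carried an array number of their own in the names of the files, so array and cytosine form cannot be told apart. The number of arrays limits the precision, and nothing in the labels says that replicates came from separate protein preparations, so p-values measure only the spread between these arrays.

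On 5hmC, CEBPB(V285A) gave lower Z-scores than on 5mC to sites with the C/EBP half-site on the modified strand. It gave higher Z-scores to 20 of the 64 sites with the PAR half-site after thymine and to 5.96% of the sequences without cytosine. With limma on all 21 arrays (Benjamini-Hochberg adjustment over all 8-mers, call at an adjusted p under 0.05), 3739 of 65535 8-mers were called, 5.71% of those tested. Of these, 1295 (1.98% of all 8-mers) were higher and 2444 (3.73%) lower on 5hmC, and 182 of the higher and 704 of the lower differed by at least 5 Z units. The median difference over all 8-mers was -0.02. The direction split moved with the scale: 34.6% of the calls were higher on the deposited Z-scores, 48.3% on log2 probe intensities and 15.2% on background-corrected log2 intensities. The arrays of the 2 groups did not overlap in any of the 3739 called 8-mers, nor in 49.6% of all 8-mers, called or not (both 5hmC arrays above both 5mC arrays in 24.5%, below them in 25.1%). The fit of all arrays has 11 residual degrees of freedom, most of them from other groups. A fit of the 6 CEBPB(V285A) arrays called 1148 8-mers (1.75% of all), of which 756 lower and 282 higher ones were also called in the fit of all arrays. A fit of the 4 compared arrays alone called 0 with limma, with 11327 at an unadjusted p under 0.05. With 2 arrays against 2, an exact two-sided permutation test of a single 8-mer cannot go below p = 0.333. Without 5mC replicate 1 the count was 2108, and without 5mC replicate 2 it was 2141.

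**Figure D1:**
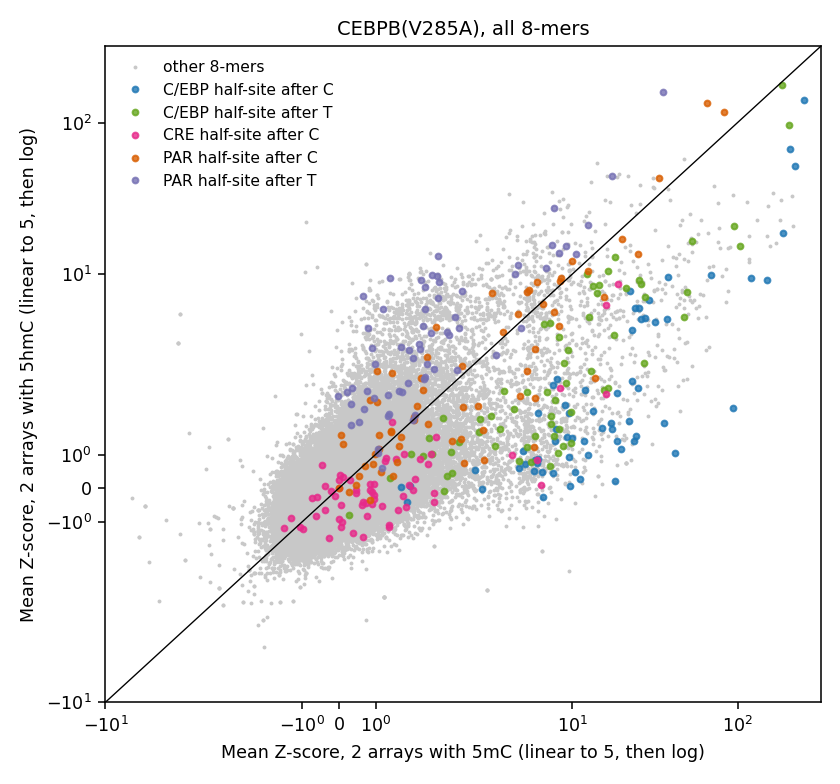
Mean Z-score of each 8-mer over the 2 arrays with 5mC (horizontal) and the 2 with 5hmC (vertical), on axes that are linear up to 5 and logarithmic beyond, with the line of equality. All 64 8-mers with the C/EBP half-site after C had a lower mean on 5hmC, while 60 of the 64 with the PAR half-site after T had a higher one.

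The half-sites were more frequent among the called 8-mers than among all, but many called 8-mers held none. At least 1 of the 3, on either strand, occurred in 23.8% of the higher calls and 41.4% of the lower. Over all 8-mers it was 11.6%. Among calls that differed by at least 5 Z units it was 59.9% of the higher and 81.5% of the lower. Among the 704 8-mers lower by at least 5 Z units, 492 (69.9%) contained gcaa, which 1.95% of all 8-mers contain, and 0 of the 182 higher by at least 5 did. Of the 256 8-mers with cgcaa, 246 (96.1%) were called lower, as were 192 of the 256 with tgcaa (75.0%) and 231 of the 256 with gcaat (90.2%). Among the 182 higher by at least 5, 99 (54.4%) contained gtaa. Of the same 182, 49 (26.9%) contained ataa or ttat, against 3.80% of all 8-mers. A further feature, cccc, was in 17 (9.34%), against 1.56% of all. Of all 1279 8-mers with gtaa, 17.1% were called higher and 1.25% lower. Among the 100 8-mers with the highest mean Z, gcaa occurred in 92 with 5mC, 29 with 5hmC and 4 with C, and gtaa in 3 with 5mC, 48 with 5hmC and 12 with C. CG occurred in 69 of the top 100 with 5mC, 37 with 5hmC and 93 with C. At least 1 of the 3 half-sites, on either strand, occurred in 100 with 5mC, 83 with 5hmC and 100 with C. No cytosine at all was found in 0 with 5mC, 23 with 5hmC and 1 with C. Overlapping 8-mers share probes, so these counts are not counts of independent sites.

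The order of the best sites differed between the forms. On C, the PAR palindrome ttaCgtaa ranked first on both arrays. On 5mC, ttaCgCaa ranked first on both arrays, with Z-scores of 256 and 251, and the PAR palindrome ranked 25 and 37. On 5hmC, ttatgCaa ranked first and ttatgtaa second on both arrays, and ttaCgCaa ranked 4 on both. The site ttatgtaa, which has no cytosine to modify, had ranked 112 and 130 on 5mC and 85 and 65 on C.

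With the PAR left side, 1 of the 4 sites was called lower on 5hmC, 2 were called higher and 1 was not called. The site with cytosine before and inside the right half-site, ttaCgCaa, had Z-scores of 256 and 251 on 5mC, 194 and 88.2 on 5hmC and 128 and 109 on C. Both 5hmC arrays lay below both 5mC arrays, and 1 of them lay below the C arrays. The difference was -112 ± 20.7 (SE, limma adjusted p = 0.0045, but 0.126 in the fit of 6 arrays). It had the opposite sign, 30.5, after each array was divided by its own top quantile. With thymine before and cytosine inside, ttatgCaa read 181 and 191 on 5mC, 228 and 125 on 5hmC and 31.6 and 28.3 on C. Here the 2 modified groups overlapped (difference -9.21 ± 20.6, adjusted p = 0.861), and all 4 arrays were far above the C arrays. The sign depended on the array and the scale: the difference was 42.0 without 5hmC replicate 2, 66.4 after quantile normalization and 92.9 after division by the top quantile.

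With cytosine before and thymine inside, the PAR palindrome ttaCgtaa read 89.3 and 77.2 on 5mC, 131 and 106 on 5hmC and 251 and 232 on C. Both modified groups were below C, and 5hmC was above 5mC by 34.9 ± 8.09 (adjusted p = 0.0205, but 0.126 in the fit of 6 arrays). This call was lost without 5hmC replicate 1 or without 5mC replicate 2, and on log2 probe intensities the difference was -0.24, with the opposite sign. With thymine at both places, ttatgtaa read 35.7 and 34.6 on 5mC, 41.7 and 35.0 on C, and 205 and 112 on 5hmC. The 5hmC arrays stood apart from all 4 others, which lay close together. The difference from 5mC was 123 ± 19.2 (adjusted p = 0.00122), with the same sign on all 5 other scales and a call on 4 of them, though not in the fit of 6 arrays (adjusted p = 0.336).

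With the CRE left side, both sites with cytosine inside the right half-site were called lower on 5hmC. The site tgaCgCaa read 237 and 205 on 5mC, 42.0 and 60.7 on 5hmC and 60.8 and 54.6 on C, so that the 5hmC and C arrays overlapped. Its difference of -169.9 ± 9.12 (adjusted p = 2.42e-08) was also called in the fit of 6 arrays (adjusted p = 0.0254). The composite site tgatgCaa, the type of element that ATF and C/EBP heterodimers bind, read 207 and 202 on 5mC, 109.9 and 84.0 on 5hmC and 42.0 and 47.6 on C. The 5hmC arrays lay between the other groups, with a difference from 5mC of -107 ± 8.68 (adjusted p = 1.97e-06, 0.0293 in the fit of 6 arrays), although division by the top quantile turned the sign (13.4). The site tgaCgtaa had 5mC arrays of 61.9 and 69.5 and C arrays of 211 and 173. Of its 5hmC arrays, 205 and 63.8, the first lay above both 5mC arrays and the second between them (difference 68.4 ± 28.0, adjusted p = 0.191). With thymine at both places, tgatgtaa read 13.3 and 21.4 on 5mC, 49.8 and 38.5 on 5hmC and 30.0 and 29.4 on C. It was higher on 5hmC by 26.8 ± 3.98 (adjusted p = 0.00081, but 0.352 in the fit of 6 arrays).

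**Figure D2:**
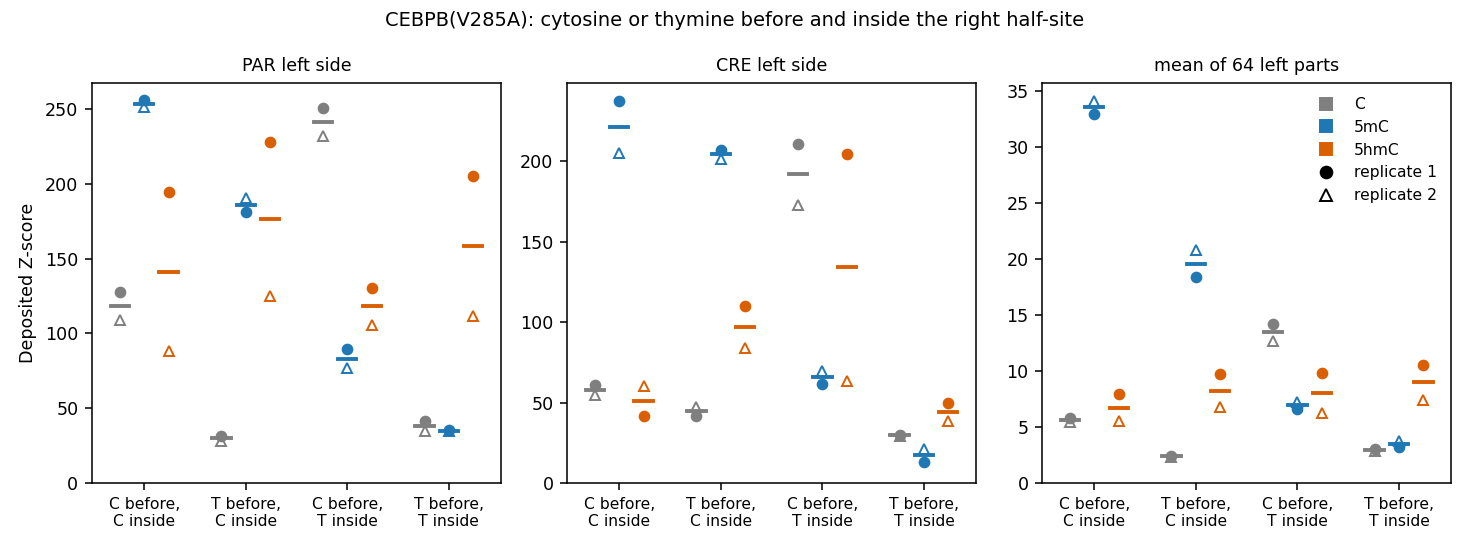
Deposited Z-scores of the joined sites by array for the PAR left side, the CRE left side and the mean over all 64 left parts; the labels give the base before and the base inside the right half-site, colours the cytosine form, markers the replicate and bars the mean. With thymine before and inside, the 5hmC arrays of the PAR left side (205 and 112) lay above the 5mC arrays (35.7 and 34.6), and with cytosine at both places below them (194 and 88.2 against 256 and 251).

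Over all 64 left parts, the order of the 4 combinations also differed between the forms. On both 5mC arrays the mean Z was highest with cytosine before and inside the right half-site (33.0 and 34.1) and lowest with thymine at both places (3.25 and 3.77). On both 5hmC arrays these ends were exchanged, with thymine at both places highest (10.6 and 7.45) and cytosine at both places lowest (7.94 and 5.52). On C, cytosine before and thymine inside, the PAR half-site after the cytosine of a CpG, was highest (14.2 and 12.7). Single left sides did not all follow this order. On 5hmC, ttatgtaa was above ttaCgCaa on both arrays, while tgatgtaa, at 49.8 and 38.5, was above tgaCgCaa, at 42.0 and 60.7, on replicate 1 and below it on replicate 2. The zero of the Z-score is set by a calculation that is not given, so levels are compared here by order and by difference, not by ratio.

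The lists with the C/EBP half-site on the modified strand were lower on 5hmC whatever base came before it. For NNNCGCAA the mean Z was 33.0 and 34.1 on 5mC, 7.94 and 5.52 on 5hmC and 5.85 and 5.44 on C. The 5hmC arrays were near the C arrays, and their mean was 26.8 Z units below that on 5mC (difference of means -26.8). Of its 64 members 63 were called lower, with a median difference of -12.4, and the fit of 6 arrays called 42 lower. For NNNTGCAA the mean was 18.4 and 20.8 on 5mC, 9.72 and 6.77 on 5hmC and 2.42 and 2.36 on C, and 43 of 64 were called lower (median difference -5.20). Here the 5hmC arrays remained above C. With A or G before the half-site, 24 and 23 of 64 were called lower, with median differences of -1.73 and -1.51, and the 5hmC means of 0.773 and 0.807 were well under the 5mC means of 2.87 and 3.11. On the deposited Z-scores of all arrays, no member of the 4 lists was called higher by limma, nor at an unadjusted p under 0.05. Of NNNTGCAA, 1 member was called higher after quantile normalization, 1 after division by the top quantile and 1 without 5hmC replicate 2. The direction of these medians held on all 5 other scales, but division by the top quantile left 10, 5, 0 and 0 calls lower after C, T, A and G. Without 5mC replicate 2 the counts were 56 after C, 37 after T and 12 after A. Without 5hmC replicate 1 or replicate 2, 13 were called after A, and without 5hmC replicate 2, 15 after G.

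Without cytosine before the PAR half-site, 20 of 64 8-mers were called higher on 5hmC after T, 7 after G and 6 after A. On the deposited Z-scores 0 were called lower by limma. For NNNTGTAA the mean Z was 3.25 and 3.77 on 5mC, 10.6 and 7.45 on 5hmC and 3.03 and 2.89 on C. Both 5hmC arrays were above both 5mC arrays in 46 of the 64 members, against 24.5% of all 8-mers, and below both in 0. The fit of 6 arrays called 9 of the 64 higher. The median difference was 2.18. The median was positive on all 5 other scales, but on log2 probe intensities 16 members were called higher and 2 lower. On that scale 6590 of all 65535 8-mers were called higher and 7045 lower. With G before the half-site the median difference was 1.16, and the calls fell to 2 in the fit of 6 arrays and 2 after quantile normalization, and to 0 after division by the top quantile. On log2 probe intensities 5 were called higher and 3 lower after G, no larger a share than over all 8-mers. With A before it the median was 0.43, but -0.0079 on log2 probe intensities, where 2 were called higher and 2 lower. There the fit of 6 arrays, quantile normalization, division by the top quantile and background-corrected log2 intensities each called 0. Leaving out single arrays gave 3 to 10 higher calls after G and 3 to 5 after A. Where a modifiable cytosine came before the half-site, NNNCGTAA, the mean was 6.66 and 7.26 on 5mC, 9.87 and 6.26 on 5hmC and 14.2 and 12.7 on C. The modified groups overlapped, and 3 members were called higher and 7 lower (0 and 3 without 5hmC replicate 1, 4 and 2 without 5hmC replicate 2, 2 and 4 without 5mC replicate 1, 2 and 2 without 5mC replicate 2). The median difference of -0.03 changed sign with the scale. On log2 probe intensities 0 were called higher and 21 lower, and on background-corrected ones 0 and 8. After quantile normalization 3 were called higher and 0 lower, and after division by the top quantile 1 and 0.

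**Figure D3:**
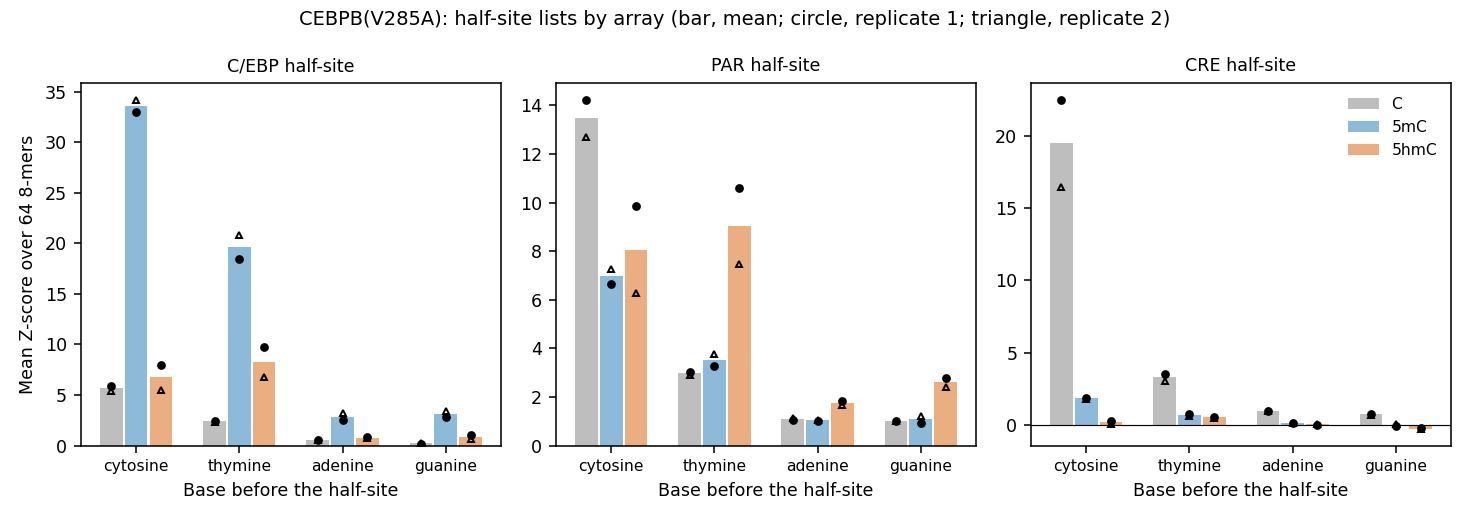
Mean Z-score over the 64 8-mers of each half-site list, by the base before the half-site, for the C/EBP, PAR and CRE half-sites; bars are means of 2 arrays, circles replicate 1 and triangles replicate 2, and the vertical axes differ. After thymine, the C/EBP half-site read 18.4 and 20.8 on 5mC and 9.72 and 6.77 on 5hmC, and the PAR half-site read 3.25 and 3.77 on 5mC and 10.6 and 7.45 on 5hmC.

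The CRE half-site on the modified strand was low on both modified forms. NNNCGTCA had a mean Z of 22.5 and 16.5 on C, 1.88 and 1.78 on 5mC and 0.287 and 0.0838 on 5hmC. With limma 0 of 64 were called in either direction, and 0 higher and 8 lower had an unadjusted p under 0.05. Over both directions, 12886 of all 65535 8-mers had such a p. Both 5hmC arrays were below both 5mC arrays in 42 members, against 25.1% of all 8-mers, and above them in 2. On log2 probe intensities 21 were called lower and 2 higher, against 7045 lower and 6590 higher of all 65535 8-mers. In the list TGACGNNN this half-site is on the plain strand. Its mean was 22.4 and 16.6 on C, 7.93 and 7.16 on 5mC and 5.29 and 3.05 on 5hmC. Of its 64 members 6 were called lower and 0 higher, where 3.73% of all 8-mers were called lower. The CRE palindrome tgaCgtCa read 174 and 135 on C, 16.1 and 21.6 on 5mC and 10.8 and 6.48 on 5hmC (difference -10.2 ± 12.3, adjusted p = 0.713). The hybrid ttgCgtCa, with a C/EBP left side, read 93.1 and 77.2 on C, 16.8 and 15.2 on 5mC and 4.53 and 1.04 on 5hmC, and the groups did not overlap although the difference of -13.2 ± 4.31 was not called (adjusted p = 0.0967). AP-1 sites (16) and ETS sites (95) had 0 calls by limma, and E-boxes (48) had 1, lower on 5hmC. Over all 8-mers 5.71% were called, with 3.73% lower, so lists of this size would hold few calls.

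Of the 21 fixed sites 3 were called higher, 4 lower and 14 were not called, against 1.98% higher and 3.73% lower of all 8-mers. In 13 the groups did not overlap, which held for 49.6% of all 8-mers. Of the 4 lower ones, ttgCgCaa, tgaCgCaa and tgatgCaa were also called in the fit of 6 arrays. The C/EBP palindrome ttgCgCaa, the classical C/EBP site, read 200.2 and 215 on 5mC, 76.9 and 57.7 on 5hmC and 65.7 and 65.3 on C. Its 5hmC arrays spanned the C values and lay far under the 5mC arrays (difference -140.4 ± 8.04, adjusted p = 4.83e-08, 0.0217 in the fit of 6 arrays).

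Beyond the fixed sites, 8 called 8-mers with the largest falls and 8 with the largest rises were named by rule. Of the falls 7 held cgcaa and 1 held tgcaa. The largest was aCgCaatC, with 194 and 240.1 on 5mC, 24.4 and 17.4 on 5hmC and 19.0 and 15.4 on C (difference -196 ± 11.4, adjusted p = 5.65e-08). The site CaaCgCaa read 121 and 120.4 on 5mC, 9.71 and 9.29 on 5hmC and 5.34 and 3.56 on C, a difference of -111 ± 3.40 (adjusted p = 6.86e-11). The other falls were CgCaataC (-134), aCgCaaCt (-104), gCgCaaCa (-62.6), gtCgCaat (-59.5), atgCaatC (-59.2) and CCaCgCaa (-58.7). In all 8 the 5hmC arrays were closer to the C arrays than to the 5mC arrays, and none of the 8 changed sign on another scale.

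Of the 8 largest rises 6 held gtaa and 4 had no cytosine. The largest was ttatataa, which has no C and no complete half-site, with 4.02 and 5.26 on 5mC, 42.5 and 25.1 on 5hmC and 18.1 and 11.9 on C. It was higher on 5hmC by 29.2 ± 3.66 (adjusted p = 0.000171), and was called on all 5 other scales but not in the fit of 6 arrays (adjusted p = 0.0887). Another without gtaa, ataatagt, read 8.37 and 6.64 on 5mC, 48.3 and 21.6 on 5hmC and 9.68 and 8.62 on C (27.4 ± 5.20, adjusted p = 0.00551). The site atgtaatC read 22.4 and 15.9 on 5mC and 48.1 and 43.9 on 5hmC (26.8 ± 2.79, adjusted p = 2.79e-05), and ttgtgtaa read 6.45 and 9.02 on 5mC and 27.1 and 27.7 on 5hmC (19.7 ± 2.05, adjusted p = 2.87e-05). Of the 16 sites named by rule only ttgtgtaa was called in the fit of 6 arrays (adjusted p = 0.035). The remaining rises were gtaatCgt (28.2), gtaaCtgt (25.4), gtaaCCgt (19.0) and gtaagagt (18.4). The calls of gtaatCgt and gtaagagt were lost without either 5mC array, that of gtaatCgt also without 5hmC replicate 1, and that of gtaaCtgt without 5mC replicate 2.

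The direction of the calls varied with the number of modifiable cytosines. Of the 6560 8-mers without C, 391 (5.96%) were called higher and 30 (0.457%) lower. The higher calls were 171 without 5mC replicate 1, 190 without 5mC replicate 2 and 227 without 5hmC replicate 1, with 22, 17 and 39 lower. The fit of 6 arrays called 129 higher and 8 lower, and division by the top quantile left 33 and 0. On log2 probe intensities 602 were called higher and 286 lower. On that scale 6590 of all 65535 8-mers were called higher and 7045 lower. The share called higher without C was thus not above that over all 8-mers. Among 8-mers carried by at least 8 probes, the share called higher was 2.30% with 1 C, 1.30% with 2 and 1.02% with 3, and the share called lower was 2.50%, 5.00% and 5.36%. The course turned with more cytosines: with 4 C 0.930% were called higher and 3.74% lower, with 5 C 1.85% and 1.39%, and with 6 C (90 8-mers) 1.11% and 0. The median difference was 0.32 without C, -0.15 with 2 C, 0.04 with 4, 0.23 with 5 and 0.49 with 6. The 99th percentile of Z among the 8-mers without C was 4.87 and 5.25 on 5mC, 4.57 and 4.22 on C and 10.3 and 8.63 on 5hmC. Among 8-mers with 3 C it was 9.52 and 10.2 on 5mC, 9.46 and 7.64 on C and 3.78 and 3.05 on 5hmC. For sequences of A and T alone (255), which carry no modified base in the 8-mer, the mean was 1.25 and 1.31 on 5mC, 1.31 and 1.40 on C and 2.96 and 2.35 on 5hmC. Of these, 41 were called higher and 0 lower by limma, with 84 higher and 4 lower at an unadjusted p under 0.05. Over both directions, 12886 of all 65535 8-mers had such a p. The calls were 20 without 5mC replicate 1, 23 without 5mC replicate 2 and 23 without 5hmC replicate 1. The fit of 6 arrays called 18 higher, asinh 8, division by the top quantile 5 and background-corrected log2 intensities 11. On log2 probe intensities 27 were called higher, a share near that over all 8-mers, and 4 lower. Probes that hold such 8-mers carry modified cytosines elsewhere, and the part of those was not tested.

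**Figure D4:**
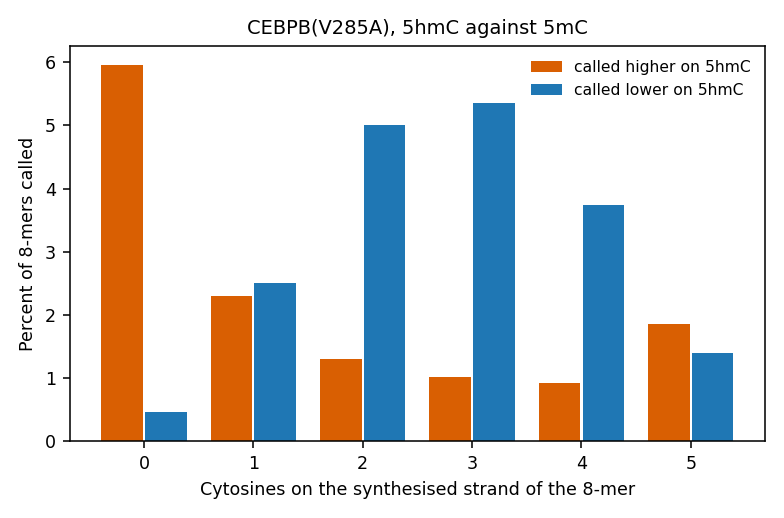
Percent of 8-mers called higher (orange) and lower (blue) on 5hmC than on 5mC, by the number of cytosines on the synthesised strand of the 8-mer, for 8-mers carried by at least 8 probes. Without cytosine 5.96% were called higher and 0.457% lower, with 3 cytosines 1.02% and 5.36%, and with 5 cytosines 1.85% and 1.39%.

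Because 1 strand is modified, a site and its reverse complement differ in which half-site carries the modified cytosines. The pair ttaCgCaa and ttgCgtaa is the same double-stranded site with the C/EBP half-site on the modified or on the plain strand. The first read above the second on all 6 arrays, by 218 and 222 Z units on 5mC, 62.1 and 135 on 5hmC and 61.8 and 77.9 on C. For ttatgtaa minus its reverse complement ttaCataa, which puts its 1 cytosine on the modified strand, the difference was -27.8 and -24.7 on C, -4.10 and 12.8 on 5mC and 74.8 and 156 on 5hmC (each pair given from low to high). On 5hmC the orientation without modified cytosine read higher on both arrays, 205 and 112 against 49.5 and 36.7. The composite site tgatgCaa exceeded its reverse complement ttgCatCa by 196 and 202 on 5mC, 80.0 and 106 on 5hmC and 24.9 and 33.0 on C. For the lists, in TTGCGNNN the C/EBP half-site is read from the plain strand. Of its 64 members 15 were called lower (8 without 5hmC replicate 2), with a median difference of -0.64. Its reverse complement NNNCGCAA had 63 and -12.4. The other plain-strand lists of this half-site did not all fall. The median difference was -0.35 for TTGCANNN, 0.45 for TTGCTNNN and 0.078 for TTGCCNNN. Those of TTGCANNN and TTGCCNNN changed sign after division by the top quantile.

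Probe intensities were compared without Z-scores, and they did not give the same picture at every site. Intensities were divided by the median of their array, and a probe was counted where both 5hmC arrays lay below, or above, both 5mC arrays, which held for 23.3% (below) and 26.0% (above) of all 40330 probes. Of the 17 probes with ttgCgCaa 14 were below and 0 above, of the 18 with ttaCgCaa 14 and 0, of the 17 with tgaCgCaa 13 and 0, and of the 17 with tgatgCaa 10 and 0. For ttatgCaa, whose Z-scores overlapped between the groups, 12 of 18 were below and 2 above. The direction was the opposite for ttatgtaa, with 1 of 20 below and 17 above, and mixed for ttaCgtaa, with 3 of 18 below and 6 above. The median over the ttaCgtaa probes was 14.8 and 13.4 times the array median on 5mC and 11.5 and 12.4 on 5hmC, which is lower, although its Z-score was called higher. For the CRE palindrome 16 of 19 were below. The median over the probes with tgaCgCaa was 34.9 and 34.3 times the array median on 5mC, 4.48 and 5.53 on 5hmC and 10.8 and 10.2 on C. For ttatgtaa it was 6.14 and 6.38 on 5mC, 11.6 and 12.0 on 5hmC and 8.15 and 7.06 on C.

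Among the printed probes, that with the CRE left side and C/EBP right side joined by C read 65523 and 65523 on 5mC, at the ceiling, and 10251 and 22700.5 on 5hmC. The probe with PAR half-sites on both sides joined by T read 34760 and 37788 on 5mC and 65528 and 25712 on 5hmC, where the first value is at the ceiling. Relative to the array medians these were 35.4 and 41.0 on 5mC and 222 and 88.1 on 5hmC. The probe with the CRE palindrome read 40107.5 and 21515.5 on 5mC, 5877 and 4913 on 5hmC and 65528 and 54131 on C. Each was chosen for its brightness, so it stands at the upper end of its site.

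**Figure D5:**
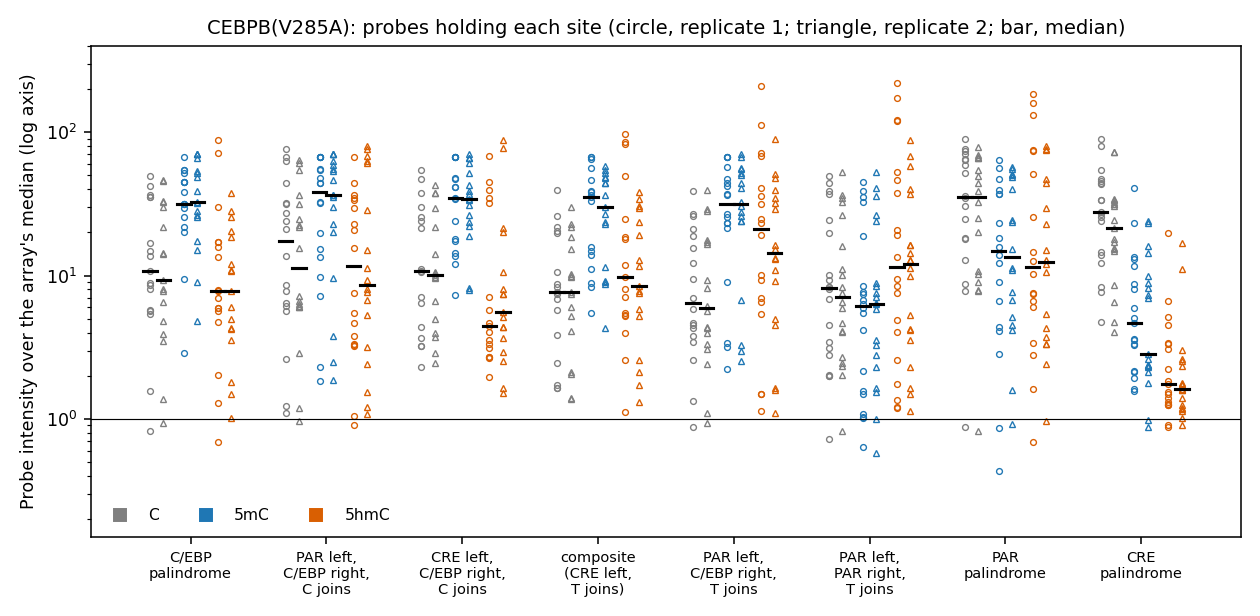
Intensity of every probe that holds each of 8 sites, divided by the median of its array, on a logarithmic axis, with colours for the cytosine form, circles for replicate 1, triangles for replicate 2 and bars for medians. The medians for the CRE left side joined by C to the C/EBP right side were 34.9 and 34.3 on 5mC and 4.48 and 5.53 on 5hmC, and those for PAR on both sides joined by T 6.14 and 6.38 and 11.6 and 12.0.

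The difference between 5hmC and 5mC was compared with that of the reciprocal mutant CREB1(A297V), as the difference of the 2 differences in the fit of all arrays. This interaction was called for 1217 8-mers (1.86% of all), 853 more negative and 364 more positive for CEBPB(V285A), and 54 of the 64 NNNCGCAA members, 28 of NNNTGCAA and 15 of NNNTGTAA were among them in the direction of the CEBPB(V285A) difference. At ttgCgCaa CREB1(A297V) had a mean Z of 4.16 on 5mC and 3.12 on 5hmC, an interaction of -139 (adjusted p = 2.35e-06). At ttatgtaa it had 7.71 and 14.1, an interaction of 117 (adjusted p = 0.0287). The top quantile of CREB1(A297V) was 7.18 and 9.70 on 5mC and 6.68 to 9.27 on 5hmC, and the direction of the interaction moved with the scale. With each array divided by its top quantile 168 8-mers were called, of which 78.0% were more positive, against 29.9% on the deposited scale, and on asinh-transformed Z-scores 3 were called, of which 0 were more positive. In CREB1(A297V), replicates 1 and 2 on 5hmC carried the same array number as both 5mC arrays. The mean of NNNCGCAA there was 1.36 and 2.56 on 5mC and 0.486 and 0.487 on 5hmC, and 0.364 and 0.331 on the other 5hmC arrays. That of NNNTGTAA was 2.72 and 3.59 on 5mC and 3.19 and 4.26 on 5hmC under the same array number, which overlap.

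Against wild-type CREB1, whose single 5mC array takes its spread from the remaining groups, the interaction was called for 993 8-mers (1.52% of all), 882 more negative and 111 more positive. These included 37 NNNCGCAA members and 28 of NNNTGCAA, more negative for CEBPB(V285A), but 2 of NNNTGTAA, more positive. The mean Z of NNNTGTAA in CREB1 was 1.05 on 5mC and 3.37 on 5hmC, and that of sequences of A and T alone was 0.459 and 1.08, so both were also above the 5mC array on 5hmC in this protein. The largest among the fixed sites was at the composite site tgatgCaa, where CREB1 read 42.4 on 5mC and a mean of 156 on 5hmC, while CEBPB(V285A) read lower on 5hmC (interaction -221, adjusted p = 5.72e-07). At ttatgtaa, where CREB1 had 3.31 on 5mC and a mean of 10.9 on 5hmC, the interaction of 116 was not called (adjusted p = 0.0915). Of the calls 11.2% were more positive on the deposited scale, against 21.4% after quantile normalization, 64.3% after division by the top quantile, 2 of 2 after asinh, 40.1% on log2 probe intensities and 45.1% on background-corrected ones.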

How the data were processed

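Per the labels, GST-tagged DNA-binding domains were bound to double-stranded arrays of 40330 probes with 35 variable bases. The deposited table held the authors' Z-score per 8-mer and array, a score whose calculation is not given in the sources used here. Spot intensity was deposited by the authors as a median per spot, beside a median local background that had not been subtracted. Names in the table were complemented base by base, the reading under which deposited Z-scores and probe intensities correlated best (r = 0.914 to 0.982 in the 4 arrays, at most 0.467 otherwise). That the printed strand was the template was assumed; if it was not, 8-mers and lists stand for their reverse complements.

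Z-scores of all 21 arrays were fitted in limma 3.58.1 (R 4.3.3), with a coefficient for each group and a mean-variance trend (11 residual degrees of freedom, two-sided), a step tested on simulated data. Matrix values of 0 for 409 8-mers without a probe were kept. Other scales were asinh, quantile normalization, division by each array's top quantile (exceeded by 1 in 1000 8-mers), and log2 probe intensities computed from the deposited intensities, without or with normexp correction (offset 50). Further alternatives were fewer arrays, array weights, a replicate block, at least 8 probes, no trend and each array left out.

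Besides 21 fixed sites, up to 8 called rises and 8 falls were named by size, with arrays not overlapping, at least 8 probes, and no 7 bases shared with one already named. The arrays were taken by their labels, but the comparison, the fixed sites and the lists were chosen with earlier results of these data known. Lists were described by counts and medians without a test.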

Additional observations from a re-analysis of the deposited data

Results flagged for a closer look

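The difference between 5hmC and 5mC was itself different between CEBPB(V285A) and CREB1(A297V) for 1217 8-mers, tested by limma as an interaction over all arrays (adjusted p under 0.05). Among the named sites the interaction, in Z units, was -139.4 at ttgCgCaa, -166 at tgaCgCaa, -107 at tgatgCaa, -194 at aCgCaatC, -129 at CgCaataC, -107 at CaaCgCaa, -103 at aCgCaaCt, -60.6 at gCgCaaCa, -56.2 at gtCgCaat, -58.2 at atgCaatC and -56.6 at CCaCgCaa, all with the C/EBP half-site. It was 62.2 at ttaCgtaa, 117 at ttatgtaa, 23.5 at tgatgtaa, 27.5 at ttatataa, 24.3 at atgtaatC, 17.1 at ttgtgtaa and 17.8 at gtaaCCgt, of which all but ttatataa hold the PAR half-site. The sites named by rule were picked for a large CEBPB(V285A) difference, which is itself a part of the interaction. Its size and call at those sites were favoured by that choice and are no separate evidence.

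Against CREB1, with 1 array on 5mC, the interaction was called for 993 8-mers. At the named sites it was -136 at ttgCgCaa, -188 at tgaCgCaa, -221 at tgatgCaa, -177 at aCgCaatC, -94.9 at CgCaataC, -99.0 at CaaCgCaa, -96.9 at aCgCaaCt, -51.7 at gCgCaaCa, -50.4 at gtCgCaat, -74.1 at atgCaatC and -49.3 at CCaCgCaa. The positive ones were 26.6 at ttatataa and 16.1 at ttgtgtaa. This interaction also contains the CEBPB(V285A) difference by which the sites named by rule were picked. Groups of 2 or fewer arrays were not tested for outlying samples.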

How the results depend on the processing

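The count of 8-mers called between 5hmC and 5mC, 3739, was 1954 on asinh-transformed Z-scores, 2073 after quantile normalization, 184 after division by the top quantile, 13635 on log2 probe intensities, 1148 with the 6 CEBPB(V285A) arrays, 0 with the 4 compared arrays by limma (11327 at an unadjusted p under 0.05), and 2108 to 3146 with 1 array left out. With the replicate number as a block it was 6087. The numbers were not shown to pair the arrays, since with 2 pairs the deviations of same-numbered 5mC and 5hmC arrays correlated at 0.0716. The interaction with CREB1(A297V), 1217 calls, gave 3 on asinh, 487 after quantile normalization, 168 after division by the top quantile and 2541 on log2 intensities, and 971 to 1333 with 1 array left out. That with CREB1, 993 calls, gave 2, 192, 14 and 8233 under the same settings, 6598 after normexp, 1719 with array weights and 854 to 1058 with 1 array left out. Signs turned for 8-mer TTATGCAA (66.4 after quantile normalization, 92.9 after division by the top quantile, and -60.4 to 42.0 with 1 array left out, positive without 5hmC replicate 2). They turned for 8-mer TTACGCAA (30.5) and 8-mer TGATGCAA (13.4) after division by the top quantile, and for 8-mer TTACGTAA on log2 intensities (-0.24) and after normexp (-0.11). List medians turned after division by the top quantile for TTGCANNN (0.58), TTGCCNNN (-0.025), TGACCNNN (-0.026) and the composite list (0.46). They turned on log2 intensities for NNNGGTCA (0.054), NNNAGTAA (-0.0079) and TTACANNN (-0.026), and for NNNGGTCA with 1 array left out (-0.314 to 0.022, positive without 5hmC replicate 1). The cause of these changes was not tested. Probes at the scanner's ceiling bound the highest 5mC values from below, and the dim 5hmC arrays limit the low end.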
